A study of Mus musculus with 2 samples.

Results

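The 10 genes described here mark the identity of tuft cells: Trpm5, Dclk1, Pou2f3, Avil, Rgs13, Alox5ap, Ltc4s, Hpgds, Kctd12 and Sh2d6. They were taken by name, and all 10 were found among the 19294 genes of the count table. The mRNA-seq data cover 2 libraries of mouse intestinal organoids (mIOs), 1 control and 1 treated with dextran sulfate sodium (DSS), a polysaccharide used to injure and inflame the gut lining. Both cultures carried the genotype Lgr5-EGFP-IRES-creERT2, in which EGFP and a tamoxifen-inducible Cre are expressed from the stem cell locus Lgr5, were grown in Matrigel with EGF, Noggin and R-spondin, and are labelled day 4. The DSS concentration of the sequenced culture, the age of the animals and the number of animals or wells behind each library are not given in the sources used here. The comparison asks how the tuft cell genes stood in DSS-treated mIOs against untreated ones.

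Tuft cells are rare chemosensory cells of the intestinal epithelium. They sense luminal metabolites and parasites through a taste-like signaling cascade that ends in the cation channel TRPM5, and they release interleukin 25 and eicosanoids, which act on type 2 immune cells. Their formation requires the POU-domain transcription factor POU2F3, which binds the octamer DNA motif together with a coactivator, and type 2 cytokines expand them in vivo. An organoid holds the epithelium without the immune cells that normally supply these cytokines.

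The libraries held 65493032 counts in the control and 59746968 counts in the DSS-treated mIOs. Levels are given as CPM, which relates a count to its library size after TMM scaling (factors of 1.09 and 0.915). Change is expressed as log2 of the DSS level over the control level, and its interval is the exact 95% range that both counts allow by the Clopper-Pearson method. With 1 library per condition there is no replicate check and no p-value, and all intervals cover counting error only. The verbs rose and fell are used for a log2 ratio of at least 1 or at most -1, a 2-fold change, whose interval does not include 0. The labels name the cells as intestinal stem cells, and Lgr5 had 18849 counts without and 1048 with DSS, while markers of enterocytes, goblet, enteroendocrine and Paneth cells were also counted in both libraries. The smallest count listed is 1 in either library, and the level of a gene without a row is not known here. In bulk RNA, fewer tuft cells and less RNA per tuft cell cannot be told apart.

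Promoter windows from RefSeq (GRCm38.p6, 250 bases before to 50 after a transcript start) were searched for the octamer ATGCAAAT on both strands, since POU2F3 belongs to the octamer-binding family. They were found for 8 of the 10 genes, with a pair of windows for Dclk1. Pou2f3 and Alox5ap had no entry. The octamer was present in 2 of these 9 windows, those of Hpgds and Kctd12, and in 1.74% of all 32851 windows. Its first base lies 174 bases before the start in Hpgds and 160 bases before it in Kctd12, on the strand of the gene in both. The shorter ATGCAAA, which every octamer contains, was found in 3 of the 9 windows and in 4.63% of all windows. The third window was that of Avil, with 1 match 15 bases and 1 match on the other strand 115 bases before the start. The 250 bases before the start are shown for these genes because they are the ones whose windows hold the motif, with the motif or its reverse complement in capitals. They lie at chr6:65144731-65144980 on the minus strand for Hpgds, chr14:102982638-102982887 on the minus strand for Kctd12 and chr10:127000459-127000708 on the plus strand for Avil.
Hpgds: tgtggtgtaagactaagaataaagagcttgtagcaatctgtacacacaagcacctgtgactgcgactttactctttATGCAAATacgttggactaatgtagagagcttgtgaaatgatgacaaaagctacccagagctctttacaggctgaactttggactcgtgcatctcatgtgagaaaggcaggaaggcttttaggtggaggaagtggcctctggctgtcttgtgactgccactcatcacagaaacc
Kctd12: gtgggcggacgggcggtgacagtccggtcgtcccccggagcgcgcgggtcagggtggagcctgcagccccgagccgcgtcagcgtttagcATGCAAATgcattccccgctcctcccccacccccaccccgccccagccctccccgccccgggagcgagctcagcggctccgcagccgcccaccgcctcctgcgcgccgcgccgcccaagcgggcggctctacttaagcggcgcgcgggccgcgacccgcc
Avil: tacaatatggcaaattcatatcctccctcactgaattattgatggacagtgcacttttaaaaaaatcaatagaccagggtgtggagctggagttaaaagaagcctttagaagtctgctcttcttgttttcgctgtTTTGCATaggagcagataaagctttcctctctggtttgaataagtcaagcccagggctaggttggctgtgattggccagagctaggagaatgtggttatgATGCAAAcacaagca
Of the 9 windows, 8 start a GENCODE transcript and that of Hpgds does not. A match is a description of the letters, and binding was not measured. The windows with the octamer belonged to a gene with a log2 ratio of -0.18 (Hpgds) and to the gene that rose (Kctd12). No octamer was found in the windows of Dclk1, Rgs13, Ltc4s, Trpm5, Sh2d6 and Avil, whose log2 ratios ran from -1.84 to -0.08. A relation between the motif and the change was not tested.

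Of the 10 genes, 9 had fewer counts in the DSS library and Kctd12 had more, while 65.9% of the 17235 genes that reached 10 counts in a library also had fewer. After scaling, the same 9 genes had a log2 ratio below 0, against 52% of all genes, and Avil and Hpgds among them were close to 0. The log2 ratio was -1 or less for 4 genes (Pou2f3, Dclk1, Alox5ap and Rgs13), while 20.2% of all genes were at or below that line. Among genes whose larger count was from 10 to 500, the range that holds 9 of the 10, the share was 21.8%. It was 1 or more for 1 gene, Kctd12, against 19.3% of all genes. The counting interval lay wholly below 0 for 5 of the 10 genes, where 42.7% of all genes had such an interval, and wholly above 0 for 1 gene, where 38.7% of all genes did. The share with an interval below 0 is therefore close to that of all genes. The median log2 ratio of the 10 genes was -0.91 and that of all genes -0.06. Rgs13 and Alox5ap passed the minimum of 10 counts through the control library only, which favors a lower ratio for them.

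**Figure D1:**
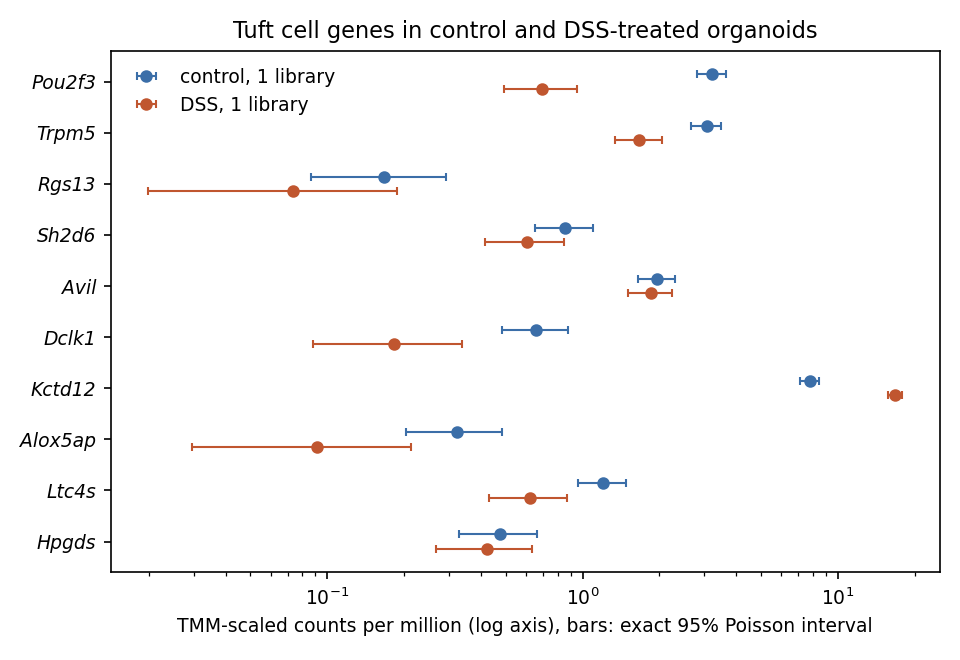
TMM-scaled CPM on a log axis for each tuft cell gene in the control library (blue) and the DSS library (orange), with exact 95% Poisson intervals as bars. Only Kctd12 is higher under DSS, at 16.7 CPM against 7.75 CPM. The counting interval of the log2 ratio lay below 0 for 5 of the 10 genes, beside 42.7% of all genes. It lay above 0 for 1 gene, beside 38.7% of all genes.

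The lowest ratio was that of the transcription factor of the lineage, although its interval overlaps those of Dclk1 and Alox5ap. Pou2f3 had 229 counts without and 38 with DSS, which is 3.20 CPM with a 95% Poisson interval from 2.80 to 3.64 and 0.695 CPM with one from 0.492 to 0.954. The log2 ratio was -2.20 (interval -2.74 to -1.70). No other gene of the 10 had a lower ratio under any scaling used. The DSS level was 0.217 times the control level. Pou2f1, the widely expressed relative of Pou2f3, which was chosen for its relation to the gene after its values were seen, had 1483 and 1124 counts and a log2 ratio of -0.01.

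The coactivators that POU2F3 uses moved in opposite directions. The table lists Pou2af2 under its older symbol 1810046K07Rik and Pou2af3 as Colca2. Pou2af2 had 39 counts without and 187 with DSS, and rose at a log2 ratio of 2.65 (interval 2.15 to 3.19). Pou2af3 had 1338 and 282 counts, and its log2 ratio was -1.86, from -2.05 to -1.67. Thus Pou2f3 and Pou2af3 were lower, and Pou2af2 was higher, in the same DSS library.

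The list of other transcription factors linked to tuft cells, coactivators included, holds 10 genes, of which 7 had a row. The log2 ratio was -1 or less for 4 of them and 1 or more for 2, with a median of -1.86. Of all genes, 20.2% and 19.3% were past these lines. Hmx3, a homeobox gene, had 32 counts without and 4 with DSS and a log2 ratio of -2.61, from -4.57 to -1.12. Without Hmx3, which falls under 10 counts in the DSS library, the median of the list was -0.89. Sox4, which promotes tuft cell formation and is also expressed in other crypt cells, fell from 6870 to 1158 counts (log2 ratio -2.18). Sox9, found in crypt cells and in tuft cells, fell from 2700 to 567 counts (log2 ratio -1.86). Atoh1, the factor of the secretory lineages, rose from 89 to 647 counts (log2 ratio 3.25). Runx1 was at 0.08, with an interval that held 0. Gfi1b, Spib and Hmx2 had no row and were not analysed here.

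The genes of the taste-like cascade were mixed in direction. Of the 9 with a row, 3 had an interval below 0, 4 above 0 and 2 held 0. All genes were mixed as well, with 42.7% below 0 and 38.7% above 0. Trpm5, the cation channel that depolarizes the cell, had 219 counts without and 91 with DSS, or 3.06 and 1.66 CPM. Its log2 ratio was -0.88 (interval -1.25 to -0.52), short of the 2-fold line. Plcb2, the phospholipase C that acts upstream of TRPM5 in taste cells, fell from 67 to 14 counts (log2 ratio -1.87, interval -2.82 to -1.02). Itpr2, a calcium release channel of the endoplasmic reticulum, fell from 1763 to 350 counts (-1.94), and Plcg2, a further phospholipase C, fell from 698 to 244 counts (-1.13). Itpr3, which many epithelial cells express, had 18567 and 14256 counts and a log2 ratio of 0.01 whose interval held 0. Gnai2, an inhibitory G-protein subunit of many cells, was higher, at 11116 and 13323 counts and a log2 ratio of 0.65 (interval 0.61 to 0.69).

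Sucnr1, the receptor for succinate, had 6 counts without and 112 with DSS. The log2 ratio was 4.61, with a wide interval from 3.44 to 6.09, since the control value rests on 6 counts. Tas1r3, a taste receptor subunit, had 110 and 115 counts and a log2 ratio of 0.45, from 0.06 to 0.84. Ffar3, a receptor for short-chain fatty acids, had 22 and 23 counts, and its interval held 0. Trpm4, the closest relative of Trpm5, had 5507 and 7671 counts and a log2 ratio of 0.87. Of the 14 genes in the list, 9 had a row, with a median log2 ratio of 0.45. Of these 9, 3 were at -1 or less and 1 at 1 or more, beside 20.2% and 19.3% of all genes. Gnat3, Gnb3, Gng13, Tas1r1 and Chat had no row and were not analysed here.

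Rgs13 and Sh2d6 encode proteins of intracellular signaling. Rgs13, a regulator that shortens G-protein signals, had 12 counts without and 4 with DSS, and its log2 ratio of -1.20 had an interval from -3.29 to 0.53. At this depth a difference of Rgs13 was not detectable. Sh2d6, an adaptor with an SH2 domain, had 61 and 33 counts, or 0.852 and 0.604 CPM. Its log2 ratio was -0.50 (interval -1.16 to 0.14), and this interval held 0 too. Sh2d7, a related adaptor of tuft cells, had 37 and 6 counts and a log2 ratio of -2.24, from -3.77 to -0.98. It was named after its values were seen.

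The cytoskeletal genes differed from each other. Avil encodes advillin, an actin-bundling protein of the long microvilli of tuft cells, and had 140 counts without and 101 with DSS. These are 1.96 and 1.85 CPM, and the log2 ratio was -0.08 (interval -0.47 to 0.30). Dclk1, a kinase that binds microtubules and is the most used tuft cell marker in the mouse, had 47 and 10 counts, or 0.657 and 0.183 CPM. It fell, at a log2 ratio of -1.84 (interval -2.99 to -0.84). Counts per gene do not separate the long and short isoforms of Dclk1. Of the relatives of advillin, named after their values were seen, Vil1, Gsn and Svil had log2 ratios of 1.25, 2.16 and 0.52, while Vill fell from 579 to 190 counts (log2 ratio -1.22, interval -1.46 to -0.98).

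**Figure D2:**
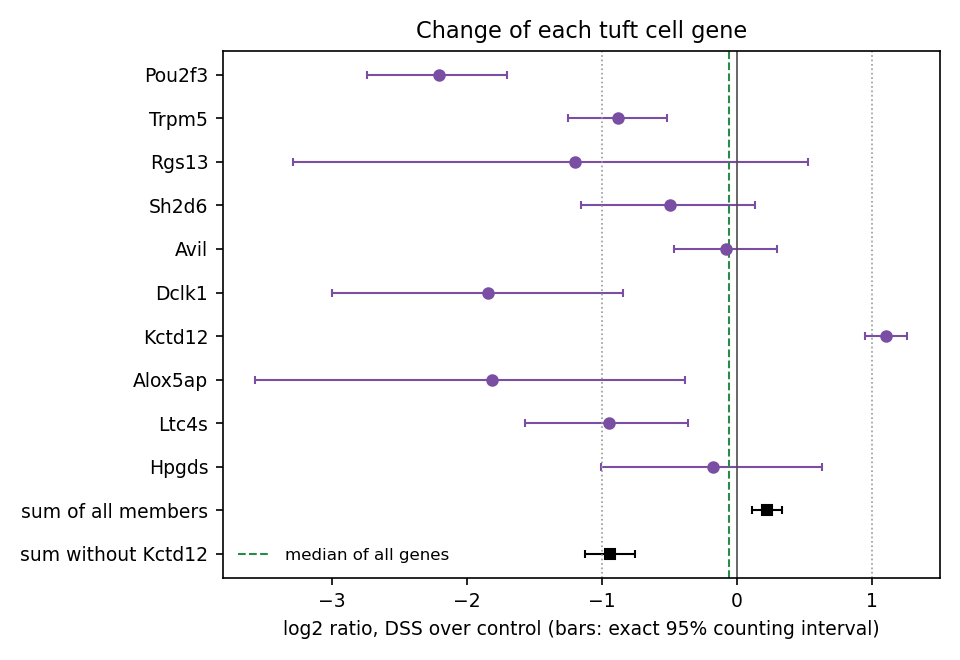
Log2 ratio of DSS over control for each tuft cell gene, with exact 95% counting intervals, and for the summed counts with and without Kctd12 (black squares). The dotted lines mark -1 and 1 and the dashed line the median of all genes at -0.06. Pou2f3 is lowest at -2.20 and Kctd12 is the only single gene to the right of 0.

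Kctd12 went against the other 9 genes, of which Avil, near 0, was at 0.0079 with upper quartile factors. It encodes an auxiliary subunit of GABA-B receptors and is also expressed outside tuft cells. It had 555 counts without and 913 with DSS, or 7.75 and 16.7 CPM, a rise of 2.15-fold. The log2 ratio was 1.11 (interval 0.95 to 1.26). Kctd12 made up 39.5% of the summed counts of the 10 genes in the control (exact binomial interval 36.9 to 42.1%) and 72.9% in the DSS library (70.4 to 75.4%). The sum therefore depends on this gene. All 10 genes together had 1406 and 1252 counts and a log2 ratio of 0.22, from 0.11 to 0.33. The 9 other genes together had 851 and 339 counts, or 11.9 and 6.20 CPM, and a log2 ratio of -0.94, from -1.13 to -0.76. Scaled by total counts instead, the sum of all 10 turned to -0.035 and Kctd12 was at 0.85, below the 2-fold line.

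The difference in change between genes of the same libraries does not depend on the scaling, so each gene was set against Trpm5. This comparison was chosen after the values were seen. Relative to Trpm5, Pou2f3 differed by -1.32 on the log2 scale, and the exact interval ran from -1.97 to -0.69. Avil was higher than Trpm5 by 0.80, from 0.26 to 1.33, and Kctd12 by 1.99, from 1.59 to 2.39. The intervals of the other 6 genes held 0. Thus Pou2f3, Trpm5, Avil and Kctd12 changed by unequal factors, beyond counting error.

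**Figure D3:**
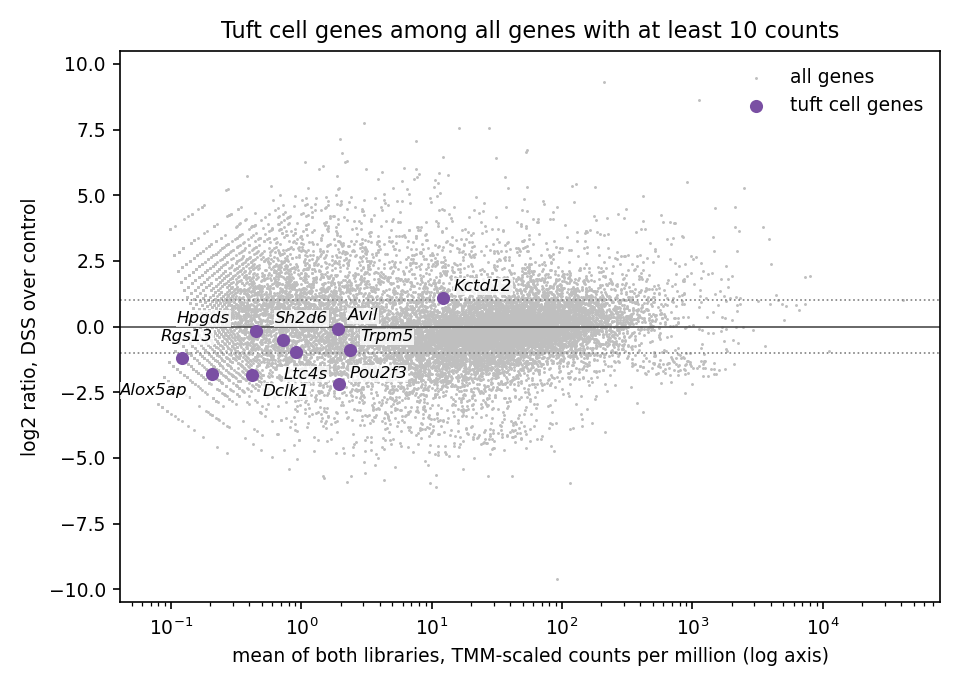
Log2 ratio of DSS over control against the mean level of both libraries in TMM-scaled CPM (log axis), for the 17235 genes that reached 10 counts in a library (grey) and the 10 tuft cell genes (purple). Apart from Kctd12, the tuft cell genes lie among genes of low level, where ratios scatter widely.

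Per length of transcript, the order of the levels shifted. Levels were divided by the longest protein-coding GENCODE transcript and are given in CPM per kilobase. In the control, Ltc4s was highest at 1.68, followed by Kctd12 at 1.28 and Pou2f3 at 1.23, and the counting intervals of these genes overlap. Trpm5 at 0.742, Avil at 0.645 and Sh2d6 at 0.617 came next, also with overlapping intervals. Alox5ap at 0.257, Hpgds at 0.137, Rgs13 at 0.109 and Dclk1 at 0.082 were lowest. In the DSS library Kctd12 stood apart at 2.76, above Ltc4s at 0.869 and Avil at 0.609. Pou2f3 was in position 6 there, at 0.266, and Dclk1 had the lowest value again, at 0.023. Overlapping intervals leave the order unresolved for many neighbors, those named next among others. Under DSS these are Ltc4s, Avil and Sh2d6, then Trpm5 against Sh2d6, and Pou2f3 against Trpm5 and Sh2d6. In the control they are Alox5ap against Hpgds, and Hpgds against Rgs13 and Dclk1. Dclk1 and Rgs13 are unresolved in both libraries.

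Tuft cells make cysteinyl leukotrienes and prostaglandin D2 from arachidonic acid, and 3 of the 10 genes encode proteins of this route. Alox5ap, which presents arachidonic acid to 5-lipoxygenase, had 23 counts without and 5 with DSS, or 0.321 and 0.091 CPM. It fell, at a log2 ratio of -1.81 (interval -3.56 to -0.39). Ltc4s, the leukotriene C4 synthase, had 86 and 34 counts, or 1.20 and 0.622 CPM. Its log2 ratio was -0.95, from -1.57 to -0.36, below 0 but short of the 2-fold line. Hpgds, the hematopoietic prostaglandin D synthase, had 34 and 23 counts, and its log2 ratio of -0.18 had an interval from -1.01 to 0.63. The summed counts of these 3 genes went from 143 to 62, a log2 ratio of -0.82 (interval -1.27 to -0.38).

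The other enzymes of eicosanoid synthesis split by direction. Of 14 genes in the list, 12 had a row, 3 were at -1 or less and 3 at 1 or more, and the median was -0.29. All genes split in a similar way, with 20.2% and 19.3% past these lines. Pla2g4a, the cytosolic phospholipase A2 that releases arachidonic acid, fell from 599 to 69 counts (log2 ratio -2.73, interval -3.11 to -2.37). Ptgds, the lipocalin-type prostaglandin D synthase, fell from 287 to 9 counts (log2 ratio -4.61, interval -5.75 to -3.66). Tbxas1, the thromboxane synthase, fell from 326 to 46 counts (-2.44).

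In the other direction, Mgst2, which can also make leukotriene C4, rose from 2168 to 6507 counts (1.97), and Mgst3 rose from 10652 to 16839 counts (1.05, and below the 2-fold line when scaled by total counts). Ptgs1, the constitutive cyclooxygenase and a tuft cell enzyme, had 6 and 33 counts and a log2 ratio of 2.85 (wide interval, 1.57 to 4.39). Lta4h, which makes leukotriene B4 and is expressed widely, was at -0.04. Abcc1 and Abcc4, which export leukotrienes and prostaglandins, were at -0.63 and -0.32. Alox5 and Ptgs2 had no row and were not analysed here. Mgst2 and Mgst3 had 30.3 and 149 CPM in the control, and such genes are expressed in many epithelial cells besides tuft cells. Pla2g4a, Tbxas1 and Ptgds, which fell, had 8.37, 4.55 and 4.01 CPM there. Which cells account for the changes of this list, lower or higher, was not tested.

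**Figure D4:**
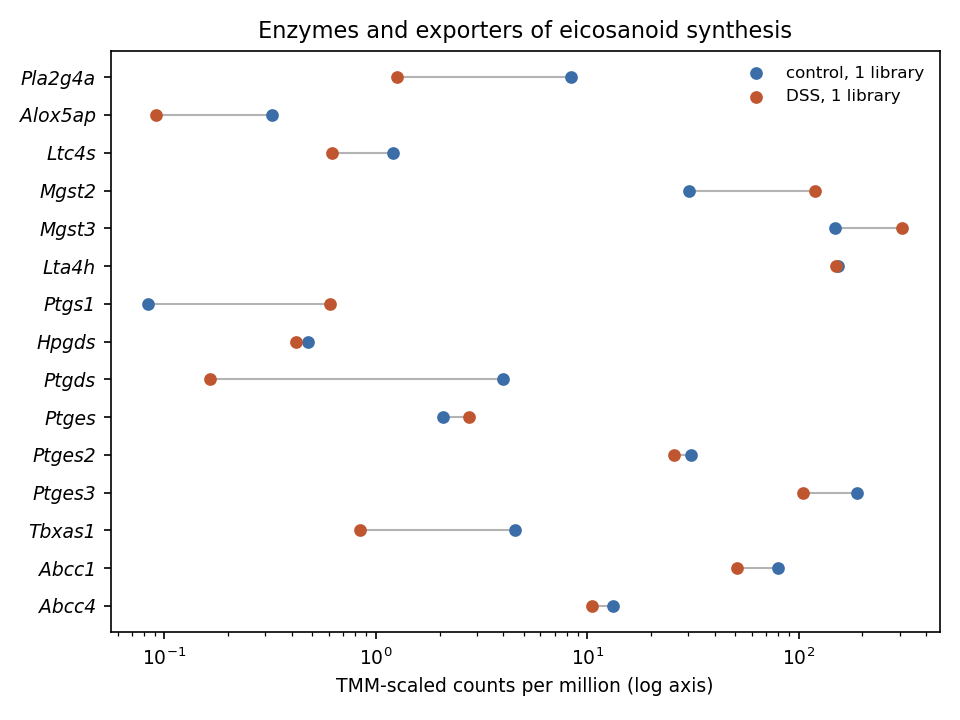
TMM-scaled CPM on a log axis in the control library (blue) and the DSS library (orange) for the genes of eicosanoid synthesis and export, Alox5ap, Ltc4s and Hpgds included. Pla2g4a, Ptgds and Tbxas1 lie far to the left under DSS, while Mgst2, Mgst3 and Ptgs1 lie to the right.

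Alox5ap, Ltc4s, Hpgds and Rgs13 are also expressed in mast cells or macrophages, so markers of these cells were read beside them. Of 10 mast cell markers only Kit and Hdc had a row, and both were lower under DSS, at log2 ratios of -0.75 and -1.72. The mast cell proteases Cpa3, Mcpt4, Tpsab1, Tpsb2 and Cma1 were not analysed here. Kit and Hdc are expressed in epithelial cells as well. Of 14 markers of macrophages and other leukocytes, 7 had a row, and their summed level went from 13.8 CPM in the control to 50.1 CPM in the DSS library. Most of the increase was Mrc1, from 96 to 1417 counts, and the 6 others summed to 12.4 and 24.2 CPM. Ptprc, Adgre1 and Tyrobp were not analysed here. Of 12 mesenchymal and neural markers, 6 had a row, with 1.66 and 3.35 CPM in all. The part of such cells in the values of the 10 genes was not tested.

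The cytokine circuit of tuft cells was represented by receptors and their transducer. Il17rb, the receptor chain for interleukin 25 that tuft cells also carry, had 501 and 429 counts and a log2 ratio of 0.16 whose interval held 0. Il13ra1, a receptor chain for interleukins 4 and 13, rose from 1845 to 4628 counts (log2 ratio 1.72, interval 1.64 to 1.79). Il4ra was at 0.76, and Stat6, which transmits the signal of both receptors, was at 0.13. None of the 4 genes with a row was at -1 or less, beside 20.2% of all genes. Il25, Tslp, Cd300lf and Siglecf had no row and were not analysed here.

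A longer list of 42 other genes enriched in tuft cells had 35 rows, with a median of -0.18. Of these 35, 9 were at -1 or less and 5 at 1 or more, beside 20.2% and 19.3% of all genes. Where both libraries had to hold 10 counts, 4 were at -1 or less and 5 at 1 or more. The share of all genes under that filter is not given here. Lrmp, also known as Irag2, a membrane protein of the endoplasmic reticulum, fell from 102 to 3 counts. Its log2 ratio was -4.70, with a wide interval from -7.00 to -3.11, since the DSS value rests on 3 counts. Limd2 fell from 173 to 28 counts (-2.24) and Pik3r5, a regulatory subunit of PI3-kinase gamma, from 74 to 15 counts (-1.91). Some signaling genes of the list are also known from leukocytes, and those given next were named after their values were seen. Pik3cg, the catalytic subunit of PI3-kinase gamma, fell from 33 to 2 counts (-3.66). Vav1 fell from 53 to 12 counts (-1.75), and the adaptor Fyb fell from 35 to 5 counts (-2.42). Matk was higher at 1.34, Ptpn6 was at 0.79 and Skap2 at 0.03. The structural genes Krt18 and Espn, which other epithelial cells express as well and which were also named after their values were seen, were at 0.04 and 1.26.

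In the 5 tuft cell lists together, 67 genes had a row. Of these, 19 (28.4%) were at -1 or less and 12 (17.9%) at 1 or more, beside the 20.2% and 19.3% of all genes. Their median log2 ratio was -0.06, equal to that of all genes to the second decimal. Among genes with a row, the longer lists as a whole did not share the lower median of the 10 identity genes. Listed genes without a row, Gfi1b, Gnat3 and Il25 among them, are not in this median, and their change is not known here. It does include genes that many other cells express, such as Itpr3, Gnai2 and Krt18.

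Of the other secretory lineages, enteroendocrine and goblet cell markers had medians above 0, while the median of the 10 tuft cell genes was below 0. The median log2 ratio was 2.32 for 10 enteroendocrine markers and 3.16 for 8 goblet cell markers. Of these markers, 9 and 8 were at 1 or more, beside 19.3% of all genes. The lists were not uniform, since 1 enteroendocrine marker was at -1 or less and Kctd12 rose among the tuft cell genes. The 7 Paneth cell markers other than defensins had a median of -1.03, near the -0.91 of the tuft cell genes. All 7 had an interval below 0, beside 42.7% of all genes. They summed to 45399 and 17784 counts, against 1406 and 1252 for the tuft cell genes, and higher counts give narrower intervals. With 1 library per condition, the differences between these lists could not be tested.

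**Figure D5:**
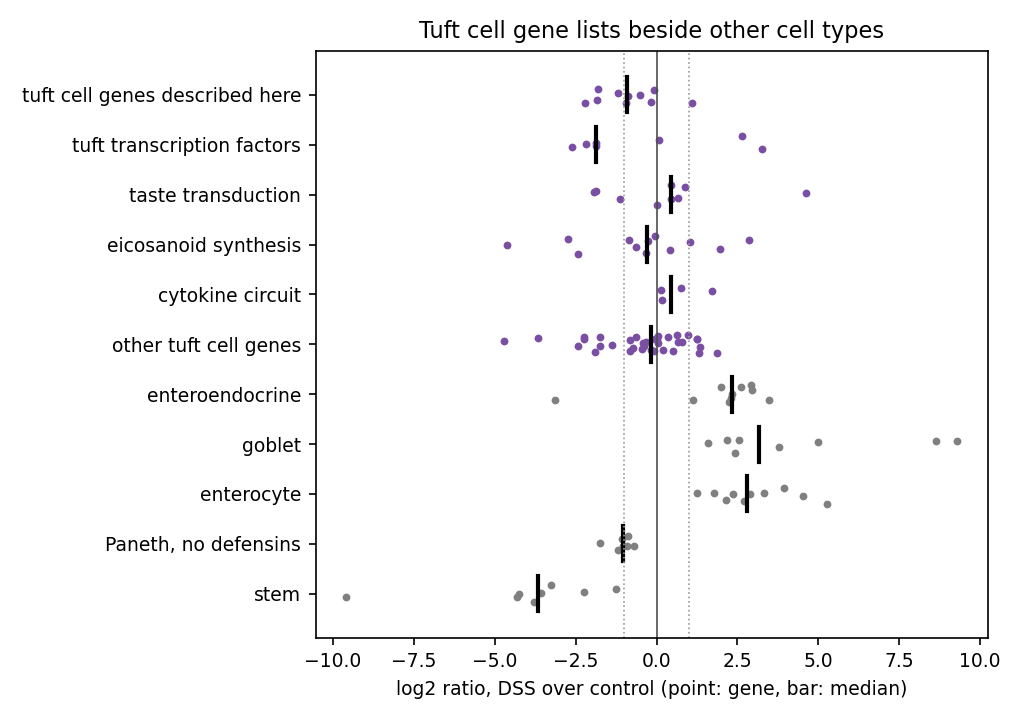
Log2 ratio of DSS over control for each gene (points) of the 10 tuft cell identity genes, the 5 further tuft cell lists (purple) and markers of other cell types (grey), with the median of each list as a black bar. The median of the 10 genes, -0.91, lies near that of the Paneth cell markers and below those of the goblet and enteroendocrine markers.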

How the data were processed

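Total RNA was extracted from 1 control and 1 DSS-treated culture of mIOs, and stranded poly(A) libraries were sequenced. The table that the authors deposited holds raw counts, not normalized, for 19294 genes listed by NCBI gene identifier, each with at least 1 count in both libraries. The files of the single samples, although named as FPKM, held the same counts for all 19294 genes. HISAT2 and StringTie are named in the submitters' processing notes without versions. The genome build, the use of strand and whether counts were taken from reads or from StringTie coverage are not given in the sources used here.

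The groups follow the treatment labels. The identifiers of the 10 genes are 56843 (Trpm5), 13175 (Dclk1), 18988 (Pou2f3), 11567 (Avil), 246709 (Rgs13), 11690 (Alox5ap), 17001 (Ltc4s), 54486 (Hpgds), 239217 (Kctd12) and 71130 (Sh2d6). TMM and upper quartile factors were computed with edgeR 4.0.16 and size factors with DESeq2 1.42.0 in R 4.3.3, and the other values with numpy 2.4.6, pandas 2.3.3, scipy 1.17.1 and matplotlib 3.10.9 under Python 3.11.15. Values relative to Trpm5 were added after the values were seen. The functions for ratios and intervals were run on simulated Poisson counts without variation between cultures. This checks the computation only, since the intervals assume the same model. They also treat the deposited values as counted reads. The 17235 genes that reached 10 counts in a library formed the background. Depth was 65493032 and 59746968 counts, so that a gene with 10 counts has an interval of several-fold width. Transcript lengths came from GENCODE mouse release M21 and promoters from RefSeq (GRCm38.p6); 99.7% of the gene identifiers of the table are in RefSeq, and no coordinates were taken from the count files. In RefSeq, only Mir5130 of the table overlaps one of the 10 genes, Kctd12, with 2 counts in each library.

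The 10 genes and the gene lists were chosen with earlier results of these data known. All 10 genes are named, with the listed genes of at least 10 counts in the taste, eicosanoid, transcription factor and cytokine lists and, in other lists, the 3 largest changes among genes with at least 50 counts. Some genes that the rule allows are left out, and 1 gene of the lists is not reported here. Of the 30 genes in a list of relatives, 5 are also in another list. In all, 25 of them had a row, with a median log2 ratio of 0.52. Of these 25, 5 were at -1 or less and 9 at 1 or more, beside 20.2% and 19.3% of all genes. The enterocyte markers had a median of 2.79 and the stem cell markers of -3.68. Alternatives were total counts, other factors, a prior count of 2, other filters, other fold lines, thinning of the deeper library and the sum without Kctd12.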

Additional observations from a re-analysis of the deposited data

How the results depend on the processing

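The median log2 ratio of the 10 genes ran from -1.17 with total counts to -0.69 where both libraries had to hold 10 counts, and no called value reversed. With total counts, which shift every gene by -0.26 on the log2 scale, the summed log2 ratio was -0.035, 0 genes were at 1 or more in place of 1, and 6 were at -1 or less in place of 4, with Trpm5 and Ltc4s added. Without Kctd12 the summed log2 ratio was -0.94, so that the sign of the sum, 0.22 as reported, depends on both choices. With the filter on both libraries, 2 genes were at -1 or less, since Rgs13 and Alox5ap were no longer counted. At the 4-fold line, 1 gene was lower, Pou2f3, and 0 were higher, where 6.54% and 7.87% of all genes were past that line. At the 1.5-fold line 6 were lower and 1 higher, beside 30.9% and 28.5% of all genes. With a prior count of 2, 3 genes were at -1 or less. For total counts, the filter on both libraries and the prior count, the share of all genes past the line is not given here. The counts of genes under these settings therefore lack a background. With total counts the median of all genes was also lower, at -0.31. Of the single genes, Avil, near 0, ran from -0.34 to 0.01, and the other 9 kept their direction under the alternatives run. In the other tuft cell lists 3 values moved, all under the filter on both libraries, where genes with few counts in either library left the lists. The longer list of 42 genes went from 9 to 4 genes at -1 or less, the taste list from 1 to 0 at 1 or more, and the median of the transcription factors from -1.86 to -0.89. Depth limits Rgs13, Alox5ap, Dclk1 and Hpgds most, with 4 to 23 counts in the DSS library. No paired analysis was possible because each condition is 1 library. Variation between cultures was not measured.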
